A study of Mus musculus with 4 samples.

Results

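Complex I, the NADH dehydrogenase of the mitochondrial inner membrane, was followed through the nuclear genes whose symbols begin with Nduf. Of the 24441 gene symbols in the tables, 46 met that rule, with 1 locus each, on 17 chromosomes. They comprised 38 genes named as subunits (Ndufa, Ndufb, Ndufc, Ndufs and Ndufv) and 8 named as assembly factors (Ndufaf). The RNA came from Langerhans cells, the resident dendritic cells of the outer skin layer, sorted from epidermis of mice aged 4 weeks. The 2 genotypes were Tfam cKO, in which a CD11c-Cre transgene was combined with floxed Tfam alleles, and wild type (WT), with 2 libraries each. CD11c-Cre acts in cells that express CD11c, so the targeting is not limited to Langerhans cells. The labels do not say whether the WT mice carried Cre or floxed alleles, nor which or how many mice gave a library. The p-values below thus reflect library-to-library spread, which may be technical.

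Complex I passes electrons from NADH to ubiquinone and pumps protons across the inner membrane. It has a matrix arm, which binds NADH and holds the flavin and the iron-sulfur clusters, and a membrane arm, which pumps. A core shared with bacteria is surrounded by accessory subunits, and assembly factors join modules of the complex without remaining in it. The core subunits of the membrane arm are products of the mitochondrial genome, which TFAM packages and helps to transcribe, and were not analysed here. All the genes described below are nuclear, so their mRNAs do not depend on TFAM for transcription.

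Levels are FPKM, fragment counts scaled to transcript length and to the mapped fragments of the library, which summed to 395707 and 375823 in Tfam cKO and to 369761 and 338783 in WT. The targeted gene Tfam stood at 1.65 and 1.53 FPKM in Tfam cKO, against 3.17 and 1.61 FPKM in WT. WT 2 was thus at the Tfam cKO level, so WT 2 below means the library labelled so. Which exons were floxed is not given, and a gene-level FPKM also counts fragments outside them. Langerhans cell markers were abundant in every library, with Cd207, the langerin gene, at 1528 and 1374 FPKM in Tfam cKO and 2098 and 1495 FPKM in WT. Keratinocyte markers were also abundant, with Krt5, a basal keratin gene, at 4480 and 3815 FPKM in Tfam cKO and 4598 and 3003 FPKM in WT. Every level below is therefore that of a mixed RNA, in which fewer cells of a type and less RNA per cell cannot be told apart. Summed over 7 genes, T cell markers reached 180 to 259 FPKM in Tfam cKO and 257 to 281 FPKM in WT. The 4 mast cell markers were listed at 0 in all libraries, the 5 fibroblast markers summed to at most 1.07 FPKM and the 5 melanocyte markers to at most 5.40 FPKM, and the 4 macrophage markers summed to 98.1 and 77.2 FPKM in Tfam cKO and 91.7 and 81.0 FPKM in WT. Nearly all of that sum was Adgre1, the F4/80 gene, and Cd163 was listed at 0.

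All 46 complex I genes averaged 1 FPKM or more, the level required for testing, so none was lost to that filter. Subunit genes stood well above assembly factor genes. The median over the 38 subunits was 46.3 and 39.0 FPKM in Tfam cKO, against 43.8 and 35.9 FPKM in WT. The median over the 8 Ndufaf genes was 2.98 and 3.01 FPKM in Tfam cKO, against 3.88 and 2.47 FPKM in WT. The subunit median was 15.6 and 13.0 times the factor median in Tfam cKO, and 11.3 and 14.6 times in WT, so the 2 genotypes overlapped in this ratio. Subunits together took 0.487% and 0.530% of the total FPKM in Tfam cKO, against 0.562% and 0.519% in WT. The genotypes overlapped in this share.

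**Figure D1:**
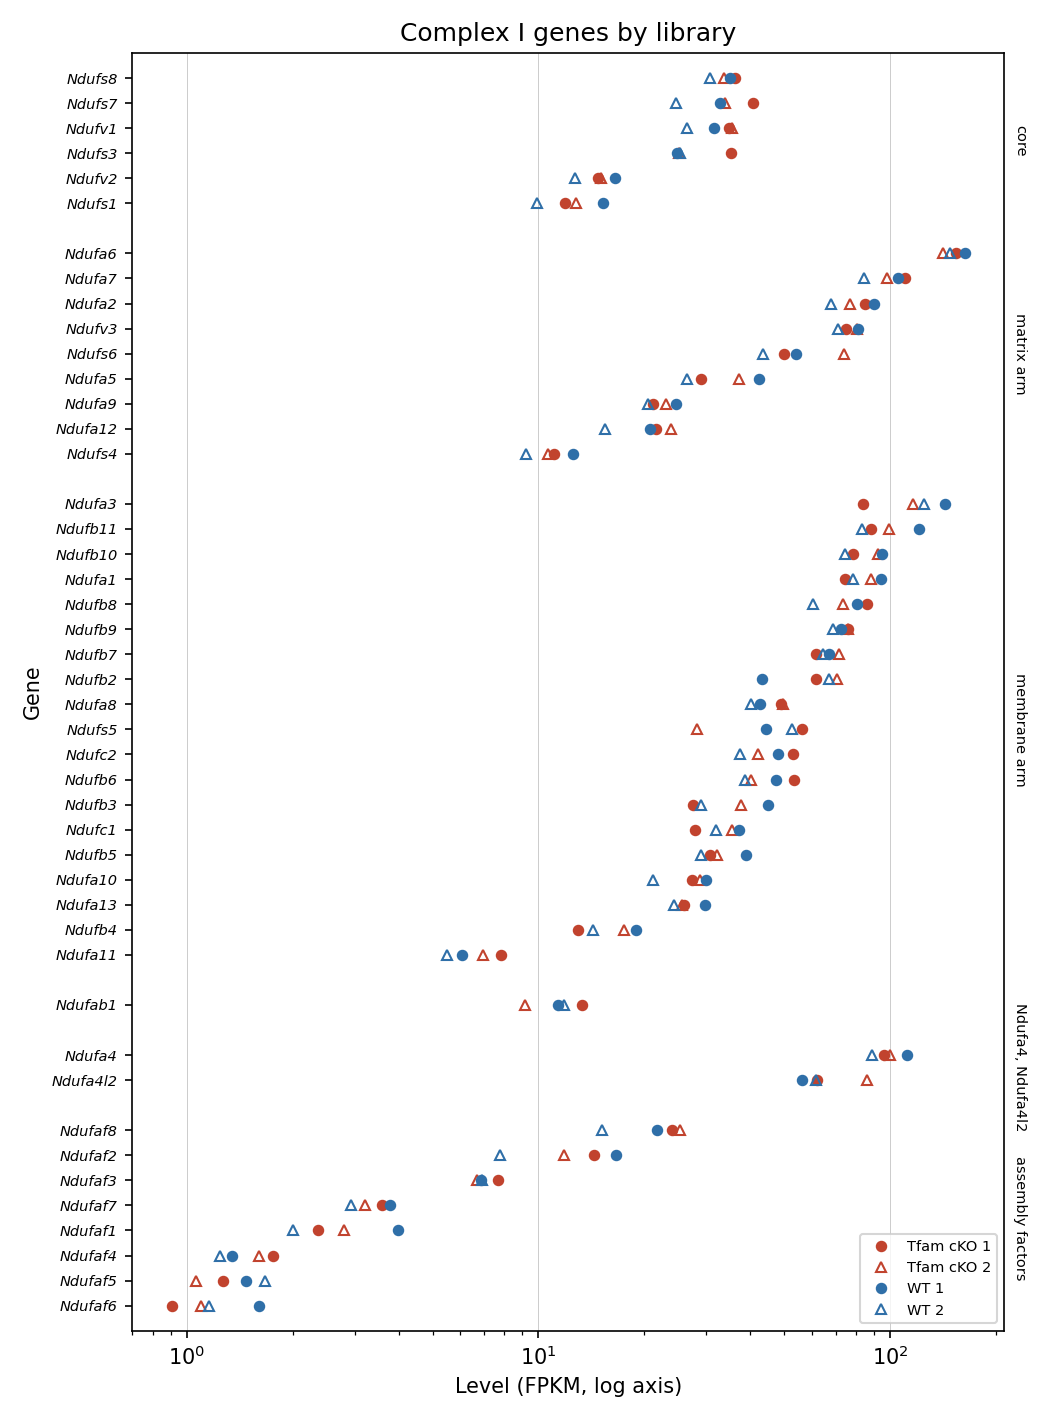
Level of the complex I genes reported here in each library, in FPKM on a log axis, with genes grouped by role and sorted by their mean. Red marks are Tfam cKO and blue marks WT, filled circles library 1 and open triangles library 2. Ndufa6, at 141 to 163 FPKM, stands highest and Ndufaf6, at 0.906 to 1.6 FPKM, lowest.

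The genes kept their order between genotypes. Across the 46 genes the Spearman correlation of the Tfam cKO mean with the WT mean was 0.99, a description over genes that share the same libraries. Mean levels of the subunits ran from 6.58 to 151 FPKM, although most subunits are present at 1 copy in the complex. Ndufa6, Ndufa3 and Ndufa7 had the highest means, and Ndufaf6, Ndufaf5 and Ndufaf4 the lowest. Short transcripts stood higher. Over the 46 genes the mean level and the length of the longest annotated transcript correlated with a Spearman coefficient of −0.61, on a scale that already divides by length.

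None of the 46 genes passed the test for a difference between Tfam cKO and WT, which was limma on log2(FPKM + 1) with Benjamini-Hochberg adjustment over 10910 genes. Of all tested genes 0.0183% passed, 2 in number and both higher in Tfam cKO. The lowest adjusted p in the family was 0.84, and 0 of the 46 had an unadjusted p below 0.05, where 6.21% of all tested genes did. As deposited, the 95% limma intervals of the 46 log2 fold changes all lay between −0.95 and 0.87, within a 2-fold change in either direction on this scale. Intervals of 10306 of the 10910 tested genes also lay within that bound. Each interval is for its gene alone and is not adjusted over the family. Intervals with all libraries rescaled to equal totals are not given here. That rescaling moved the log2 fold change of Ndufa3 from −0.44 to −0.56 and that of Ndufs5 from −0.27 to −0.40, so the bound may not hold there. That bound is looser for genes near 1 FPKM, whose changes the added 1 compresses. The median log2 fold change was 0.03 for subunits and 0.03 for Ndufaf factors, against 0.07 over all tested genes. With all libraries rescaled to equal totals these medians were −0.09 and −0.08, and the median of all tested genes shifted by −0.11 to −0.04. Relative to all tested genes, the subunit median stood 0.04 lower as deposited and 0.05 lower after rescaling. This difference depended on the WT libraries, at 0.06 without WT 1 and −0.09 without WT 2.

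**Figure D2:**
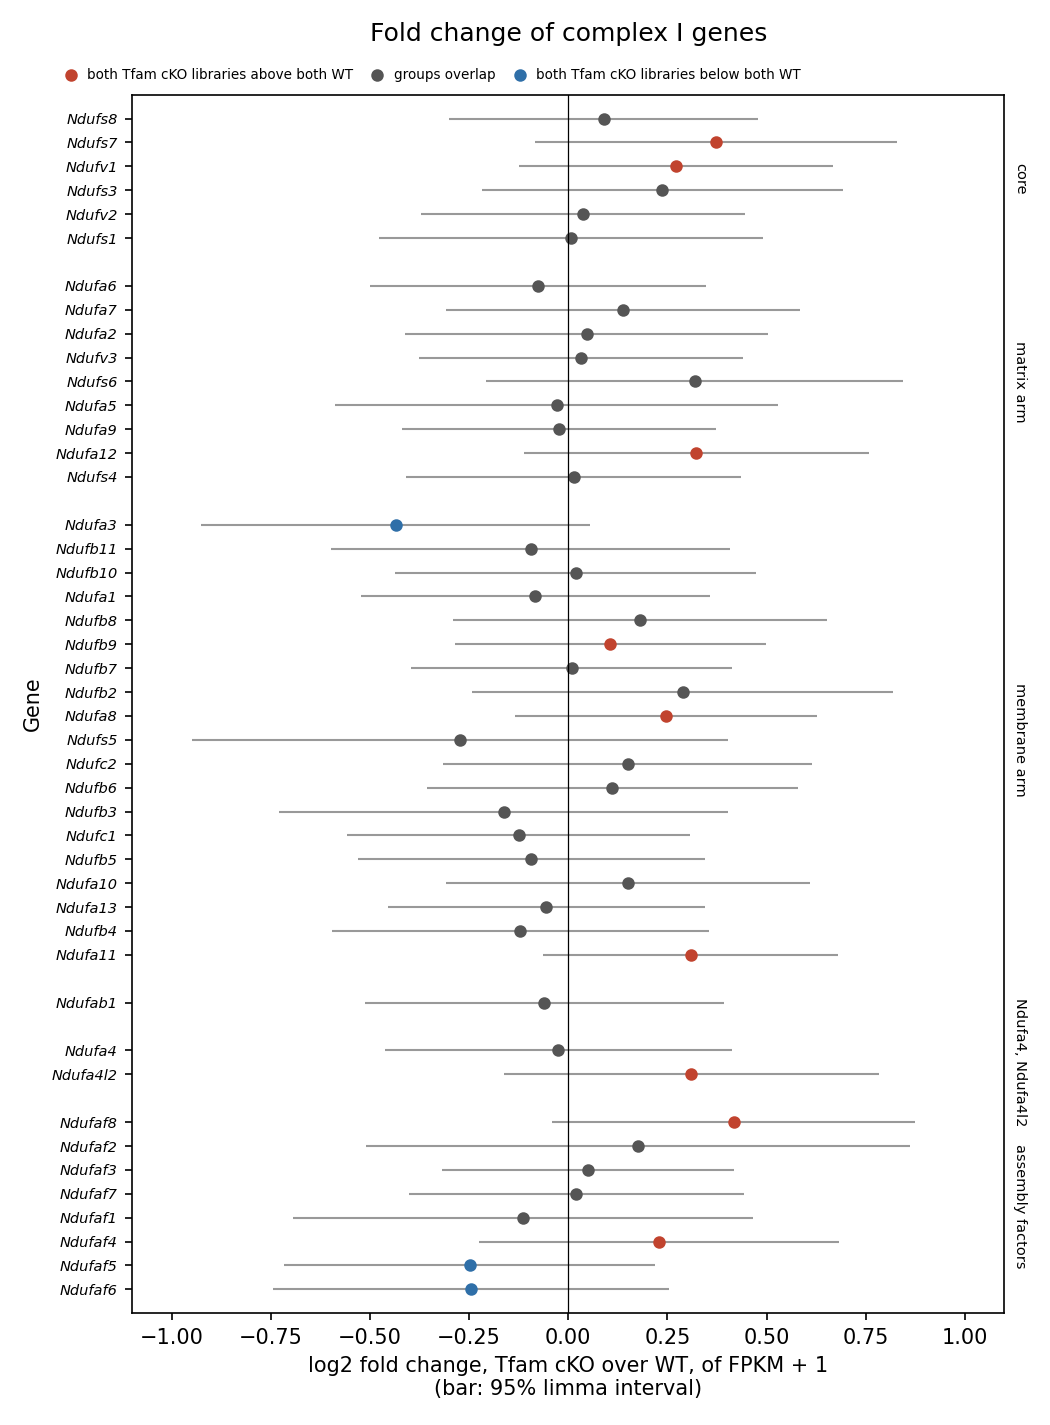
Log2 fold change of FPKM + 1, Tfam cKO over WT, for the complex I genes reported here, each with its 95% limma interval as a bar. Red points are the 9 genes whose Tfam cKO values both exceed the WT values, blue points the 3 whose Tfam cKO values are both under them, and grey points genes whose genotypes overlap. All intervals drawn include 0.

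The lower Tfam cKO value exceeded the higher WT value for 9 of the 46 genes (19.6%), a condition met by 25.4% of all tested genes. The reverse held for 3 (6.52%), against 9.75% of all tested genes. Among subunits alone, 7 of 38 were above and 1 below. Among Ndufaf factors, 2 of 8 were above and 2 below. After rescaling to equal totals the 46 genes gave 6 above and 6 below, against 14.3% and 19.8% of all tested genes. After quantile normalization they gave 6 above and 5 below, against 16.3% and 17.3%. Ndufa8, Ndufa11, Ndufs7, Ndufv1, Ndufaf4 and Ndufaf8 were above, and Ndufa3, Ndufaf5 and Ndufaf6 below, under each of these scalings. Ndufa12, Ndufa4l2 and Ndufb9 were above only as deposited. Ndufa6 and Ndufa13 were below only after rescaling to equal totals and after quantile normalization, and Ndufb5 only after rescaling to equal totals.

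Promoters were read for the members, because many respiratory chain genes are known to share binding motifs of the factors NRF1, GABP of the ETS family, YY1 and NF-Y near their start. RefSeq promoters of build GRCm38.p6 were found for 40 of the 46 genes. The windows ran from 120 bases before to 30 after the start, and both strands were searched. The NRF1 motif, searched as GCGC, any 2 bases and GCGC, was present for 10 of 40 members (25.0%), against 5.32% of all 27025 genes in the table. The ETS letters CCGGAAG were present for 5 (12.5%, against 7.53%), the YY1 letters AAGATGGC for 3 (7.50%, against 1.64%) and the NF-Y letters CCAAT for 9 (22.5%, against 27.0%). The 27025 genes include many that were not tested here, and the shares among the 10910 tested genes were not computed. A match is a description of the letters and not a bound site. Below are Ndufa3, the only subunit lower in both Tfam cKO libraries, Ndufaf8 and Ndufs7, the factor and the core subunit with the largest positive log2 fold changes, and Ndufa8, whose genotypes separated under each scaling. Capitals mark matches on either strand, and in these 4 windows no motif overlaps another. Ndufa3 (chr7:3617253-3617402, plus strand) holds the YY1 letters, Ndufaf8 (chr11:120098814-120098963, plus strand) those of YY1, ETS and NF-Y, and Ndufa8 (chr2:36049309-36049458, minus strand) those of NRF1. Ndufs7 (chr10:80249329-80249478, plus strand) holds none of the 4 in this window. Of the genes that separated under each scaling but are not shown, Ndufa11, Ndufaf4 and Ndufaf5 hold the NRF1 letters. Ndufv1, also not shown, holds none of the motifs, and no promoter was found for Ndufaf6.
Ndufa3: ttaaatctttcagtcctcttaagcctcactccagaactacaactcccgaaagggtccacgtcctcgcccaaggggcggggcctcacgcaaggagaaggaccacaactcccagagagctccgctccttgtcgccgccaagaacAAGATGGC
Ndufaf8: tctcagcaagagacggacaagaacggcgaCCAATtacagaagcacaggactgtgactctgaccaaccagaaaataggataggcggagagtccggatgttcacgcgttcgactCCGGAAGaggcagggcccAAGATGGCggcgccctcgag
Ndufs7: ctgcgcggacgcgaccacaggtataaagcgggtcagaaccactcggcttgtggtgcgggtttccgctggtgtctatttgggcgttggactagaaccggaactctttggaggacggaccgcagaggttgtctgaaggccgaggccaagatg
Ndufa8: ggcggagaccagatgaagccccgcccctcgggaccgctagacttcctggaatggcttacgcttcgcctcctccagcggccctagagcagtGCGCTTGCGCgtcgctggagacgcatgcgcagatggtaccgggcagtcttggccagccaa

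The nuclear core subunits carry the flavin, the iron-sulfur clusters and the quinone site. The log2 fold changes of those described here ranged from 0.01 to 0.37. They were positive as deposited, while those of Ndufs1, Ndufs8 and Ndufv2 turned negative after rescaling to equal totals and after quantile normalization. Ndufs7, which holds the last iron-sulfur cluster before the quinone, had 40.7 and 33.9 FPKM in Tfam cKO, against 32.8 and 24.7 FPKM in WT. Both Tfam cKO libraries were higher, although Tfam cKO 2 exceeded WT 1 only slightly (log2 fold change 0.37, SE 0.20, limma adjusted p = 0.86). Ndufv1, which binds NADH and the flavin, had 34.8 and 35.6 FPKM in Tfam cKO, against 31.7 and 26.5 FPKM in WT. Its Tfam cKO libraries were close together and above both WT libraries (log2 fold change 0.27, SE 0.17, limma adjusted p = 0.89). Ndufs3, another core subunit of the matrix arm, had 35.2 and 25.0 FPKM in Tfam cKO, against 24.8 and 25.3 FPKM in WT. Only Tfam cKO 1 was high, and the other 3 libraries were nearly equal.

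Other core genes overlapped between genotypes. Ndufs8, an iron-sulfur subunit, had 36.2 and 33.7 FPKM in Tfam cKO and 35.0 and 30.7 FPKM in WT. Both Tfam cKO values of Ndufs8 lay close to WT 1, with WT 2 lowest. Ndufv2, an iron-sulfur partner of Ndufv1, had 14.8 and 15.0 FPKM in Tfam cKO and 16.5 and 12.7 FPKM in WT. Ndufs1, the largest core subunit, had 11.9 and 12.8 FPKM in Tfam cKO and 15.2 and 9.89 FPKM in WT. For Ndufv2 and Ndufs1, the WT libraries enclosed the Tfam cKO libraries, and the WT difference was the wider.

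Of the 9 accessory subunits of the matrix arm, only Ndufa12 separated the genotypes as deposited. That is 11.1% higher and 0% lower, against 25.4% and 9.75% of all tested genes. In the matrix arm, Ndufa12 takes the place of the assembly factor Ndufaf2 as the complex matures. Ndufa12 had 21.6 and 23.9 FPKM in Tfam cKO, against 20.8 and 15.5 FPKM in WT (log2 fold change 0.32, SE 0.19, limma adjusted p = 0.87). The gap to WT 1 was small and WT 2 stood apart below, and after rescaling to equal totals or quantile normalization the genotypes overlapped. Ndufa6, which binds the mitochondrial acyl carrier protein, was the highest of all complex I genes, with 154 and 141 FPKM in Tfam cKO and 163 and 148 FPKM in WT. Ndufa7 had 111 and 97.8 FPKM in Tfam cKO and 105 and 84.5 FPKM in WT. In both genes the genotypes interleaved. Ndufs6, a zinc-binding subunit, had 49.8 and 74.0 FPKM in Tfam cKO and 54.1 and 43.4 FPKM in WT, with Tfam cKO 2 alone standing high. Ndufs4, whose loss in mice gives a Leigh-like encephalopathy, had 11.1 and 10.7 FPKM in Tfam cKO and 12.5 and 9.21 FPKM in WT. The other 4, Ndufv3, Ndufa2, Ndufa5 and Ndufa9, had log2 fold changes between −0.03 and 0.05.

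Of the 19 accessory subunits of the membrane arm, 3 were higher and 1 lower in both Tfam cKO libraries as deposited. These are 15.8% and 5.26%, against 25.4% and 9.75% of all tested genes. The lower gene was Ndufa3, a small subunit with a single membrane helix, listed at chromosome 7, 3568974 to 3571763, in the files' coordinates. Ndufa3 had 83.9 and 116 FPKM in Tfam cKO, against 143 and 125 FPKM in WT. Its fitted difference of −0.44 on the log2 scale (SE 0.21, limma adjusted p = 0.85) was the most negative of the family, and Tfam cKO 1 carried most of it. Without Tfam cKO 1 it was −0.21. Ndufa8, a cysteine-rich subunit on the side of the intermembrane space, had 49.0 and 49.7 FPKM in Tfam cKO, against 42.7 and 40.2 FPKM in WT. Both genotypes were tight for Ndufa8 and did not overlap (log2 fold change 0.25, SE 0.17, limma adjusted p = 0.90). Ndufa11, the subunit gene with the lowest mean, had 7.82 and 6.97 FPKM in Tfam cKO, against 6.05 and 5.50 FPKM in WT (log2 fold change 0.31 with an SE of 0.16, limma adjusted p = 0.86). Ndufb9, which binds acyl carrier protein at the tip of the membrane arm, had 75.9 and 75.9 FPKM in Tfam cKO, against 72.3 and 68.7 FPKM in WT, a log2 difference of 0.11 that turned to −0.02 after rescaling to equal totals and to −0.01 after quantile normalization. Ndufa1 and Ndufb11 are X-linked. Ndufa1 had 74.6 and 88.3 FPKM in Tfam cKO and 94.2 and 78.6 FPKM in WT. Ndufb11 had 88.5 and 99.1 FPKM in Tfam cKO and 120 and 83.2 FPKM in WT. Neither X-linked gene separated the genotypes. As deposited, the genotypes also overlapped for the other 12, Ndufa10, Ndufa13, Ndufc1, Ndufc2 and the remaining Ndufb genes. Their log2 fold changes ran from −0.16 for Ndufb3 to 0.29 for Ndufb2. After rescaling to equal totals Ndufa13 and Ndufb5 were lower in both Tfam cKO libraries, and after quantile normalization Ndufa13 still was. Ndufb2 had 61.5 and 70.7 FPKM in Tfam cKO and 43.2 and 67.0 FPKM in WT, with WT 1 alone low.

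Ndufs5, a cysteine-rich subunit of the membrane arm, changed direction when it was summed with an overlapping gene model. It had 56.2 and 28.2 FPKM in Tfam cKO, against 44.4 and 52.7 FPKM in WT, so that Tfam cKO 2 alone was low and the fitted log2 fold change was −0.27 (limma adjusted p = 0.95). In the files a model named BC002163 starts at the same base of chromosome 4 and covers nearly the same stretch. That model was listed at 0.000327 and 35.5 FPKM in Tfam cKO and at 0.00541 and 0.0177 FPKM in WT, so it was well above 0 in Tfam cKO 2 alone. The sum of both models was 56.2 and 63.6 FPKM in Tfam cKO, against 44.4 and 52.7 FPKM in WT. On the sum the genotypes did not overlap, and the log2 fold change was 0.30 (SE 0.18, limma adjusted p = 0.88), the opposite direction. Counting the models together was chosen after the values were seen. A further BC002163 model, on chromosome 16, had 28.4 and 25.7 FPKM in Tfam cKO and 21.3 and 19.3 FPKM in WT. A BC002163 transcript is also a near-identical copy of that of Ndufs5. How reads were shared among these models was not tested. The value of Ndufs5 as listed is therefore uncertain.

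Other members can share reads as well. Searching the longest transcript of each gene against the annotated transcripts found another gene with at least 95% identity, over at least 150 bases and 50% of the shorter transcript, for 10 of the 46. Ndufb4, with its copy Ndufb4c, Ndufs6, with Ndufs6b, and Ndufab1, with Ndufab1-ps, were among them. In the files, 8 members lay at the same place as another gene. Ndufa4l2 overlapped Shmt2, a gene of serine metabolism, which had 14.5 and 17.1 FPKM in Tfam cKO and 15.1 and 11.4 FPKM in WT. The sources used here do not say whether strand was kept, so reads of such neighbours cannot be told apart.

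Ndufab1 encodes the mitochondrial acyl carrier protein, which sits in both arms and also serves lipoate synthesis. It had 13.3 and 9.16 FPKM in Tfam cKO and 11.4 and 11.8 FPKM in WT, with the Tfam cKO libraries on either side of WT. Ndufa4 was named as a complex I subunit but is now regarded as part of cytochrome c oxidase. It had 95.9 and 99.8 FPKM in Tfam cKO and 111 and 89.0 FPKM in WT, enclosed by the WT libraries. Its paralog Ndufa4l2, a hypoxia-inducible gene in other cells, had 62.1 and 86.1 FPKM in Tfam cKO, against 56.0 and 61.7 FPKM in WT. Tfam cKO 1 was level with WT 2, and the separation rested on a gap smaller than the spread of either genotype (log2 fold change 0.31, SE 0.21, limma adjusted p = 0.89). Ndufa4l2 no longer separated the genotypes after rescaling to equal totals. Without Ndufa4 and Ndufa4l2 the subunit median log2 fold change was the same 0.03.

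The Ndufaf factors differed in sign among themselves, with log2 fold changes from −0.25 to 0.42 and an SD of 0.23 over 8 genes, against 0.18 over the 38 subunits. Ndufaf8 and Ndufaf5 act together in the early matrix arm, where Ndufaf5 modifies the core subunit Ndufs7. Ndufaf8 had 24.0 and 25.2 FPKM in Tfam cKO, against 21.7 and 15.2 FPKM in WT. This was the largest positive log2 fold change of the family, 0.42 (SE 0.20, limma adjusted p = 0.84), and WT 2 was the outlying library. Without WT 2 it was 0.17 and without WT 1 it was 0.66. Ndufaf5 had 1.27 and 1.06 FPKM in Tfam cKO, against 1.48 and 1.67 FPKM in WT, so this partner was lower in both Tfam cKO libraries (log2 fold change −0.25 with an SE of 0.20, limma adjusted p = 0.92). These values rest on 38 and 55 effective fragments in Tfam cKO and 49 and 76 in WT.

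Ndufaf3 and Ndufaf4 work together on the quinone-binding part of the matrix arm. Ndufaf4 had 1.76 and 1.61 FPKM in Tfam cKO, against 1.34 and 1.24 FPKM in WT, higher in both Tfam cKO libraries (log2 fold change 0.23, SE 0.20, limma adjusted p = 0.92). Ndufaf3 had 7.68 and 6.69 FPKM in Tfam cKO and 6.87 and 6.92 FPKM in WT, with no separation. Ndufaf6, another early assembly factor, had 0.906 and 1.1 FPKM in Tfam cKO, against 1.6 and 1.16 FPKM in WT. Tfam cKO 2 was only just under WT 2, and the values rest on 9 and 19 effective fragments in Tfam cKO and 18 and 18 in WT (log2 fold change −0.24, SE 0.22, limma adjusted p = 0.92). Ndufaf7, a protein methyltransferase of complex I assembly, had 3.60 and 3.21 FPKM in Tfam cKO and 3.78 and 2.93 FPKM in WT. Ndufaf1, of the assembly complex for the membrane arm, had 2.36 and 2.81 FPKM in Tfam cKO and 3.98 and 2.01 FPKM in WT. Ndufaf2, a paralog of Ndufa12, had 14.4 and 11.8 FPKM in Tfam cKO and 16.7 and 7.75 FPKM in WT. In all 3 genes the WT libraries lay outside both Tfam cKO libraries.

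Of the other complex I assembly factors, which have no Nduf symbol, 10 of 11 listed were found and all 10 were tested. None passed (lowest limma adjusted p = 0.85; 0 at an unadjusted p below 0.05), and their median log2 fold change was 0.03. Dmac1, a membrane arm factor, had 14.3 and 15.6 FPKM in Tfam cKO and 19.4 and 14.0 FPKM in WT. Dmac2, also of the membrane arm, had 10.1 and 7.83 FPKM in Tfam cKO and 8.66 and 8.30 FPKM in WT. Both overlapped between genotypes. The genotypes separated for 3 of the 10 (30%), Ecsit, Foxred1 and Nubpl, all higher in Tfam cKO on the deposited scale. Of all tested genes 25.4% were higher in this way. Nubpl, an iron-sulfur cluster factor for complex I named here after its values were seen, had 4.6 and 2.53 FPKM in Tfam cKO, against 1.88 and 2.49 FPKM in WT, with Tfam cKO 1 high and Tfam cKO 2 level with WT 2.

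Differences between the WT libraries were wider than those between genotypes. Among the 46 genes, 39 were lower in WT 2 than in WT 1 (84.8%, against 62.6% of all tested genes), with a median difference of −0.30 on the log2 scale for subunits and −0.28 for Ndufaf factors, against −0.10 over all tested genes. WT 2 was the lowest of the 4 libraries for 31 of the 46 genes (67.4%, against 46.0% of all tested genes). WT 1 was the highest for 24 (52.2%, against 27.1%). Between the Tfam cKO libraries, 20 of 46 genes were lower in Tfam cKO 2 than in Tfam cKO 1 (43.5%, against 52.4% of all tested genes). The median difference was 0.05 for subunits and −0.11 for Ndufaf factors, of which 5 of 8 were lower in Tfam cKO 2, against −0.01 over all tested genes. For subunits the median absolute log2 difference was 0.12 between genotype means, 0.17 between the Tfam cKO libraries and 0.31 between the WT libraries. Over all tested genes these were 0.14, 0.16 and 0.23, in the same order. The first value of each set compares means of 2 libraries and so averages part of the spread away.

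**Figure D3:**
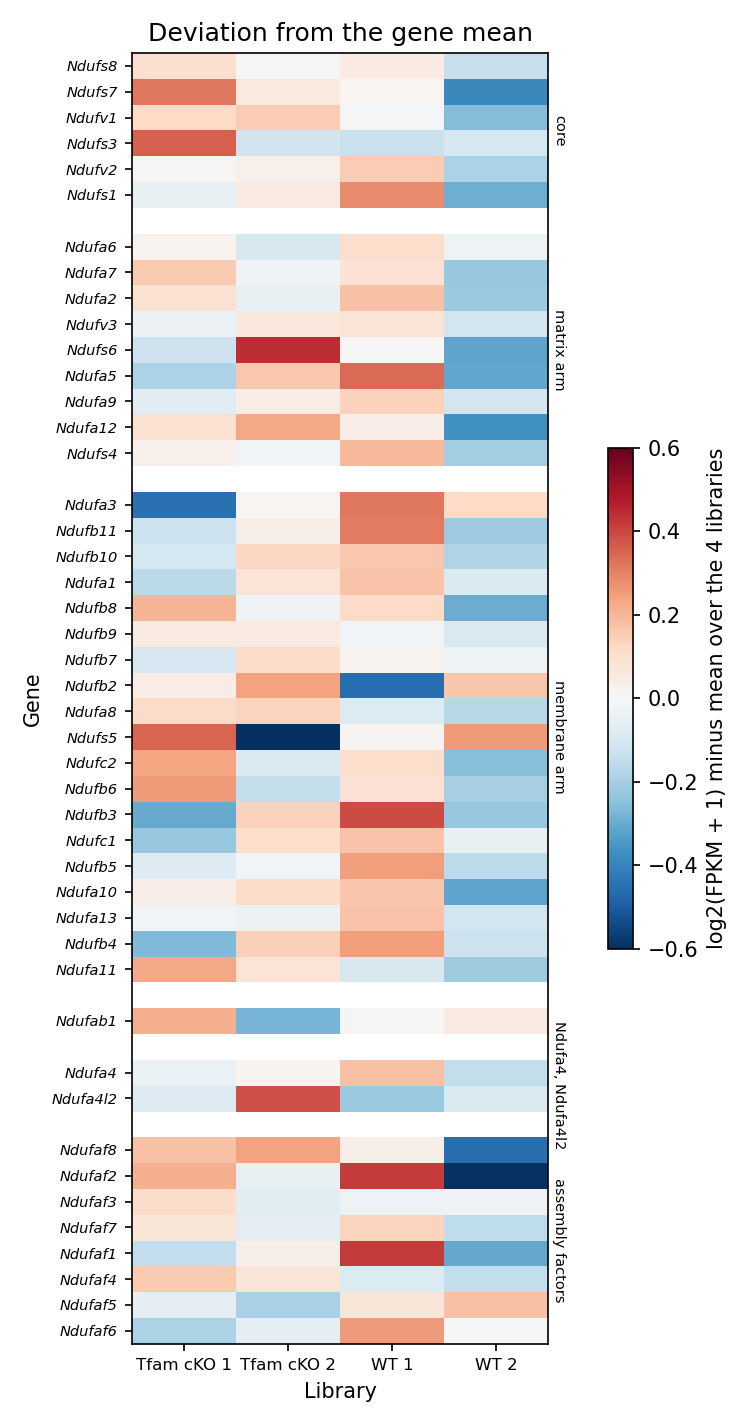
Deviation of the complex I genes reported here in each library from the gene's mean over the 4 libraries, as log2(FPKM + 1), with red above and blue below the mean and the colour scale ending at 0.6 in either direction. The WT 2 column is below the mean in most rows, and the WT 1 column is above it in most.

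The direction of the subunit and factor medians differed with the WT library left out. Without WT 1 the subunit median was 0.20 and the factor median 0.21, with 32 of 38 subunits positive, against a median of 0.13 and 68.2% positive over all tested genes. Without WT 2 these medians were −0.08 and −0.16, with 10 of 38 subunits positive, against a median of 0.01 and 52.7% positive over all tested genes. The factor median was also negative without Tfam cKO 1, at −0.03, while the subunit median was 0.05 and that of all tested genes 0.07. Subunits positive were then 26 of 38, against 64.6% of all tested genes. Without Tfam cKO 2 they were 22 of 38, against 62.0%. With all 4 libraries 24 of 38 were positive (14 of 38 after rescaling to equal totals), and 65.2% of all tested genes (43.2% after it).

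Subunits of the other respiratory complexes and keratinocyte markers shared this library order. Of 38 subunits of complexes II to V, 34 were lower in WT 2 than in WT 1, with a median difference of −0.38, and WT 2 was lowest of all for 27. None of the 38 passed the genotype test (lowest limma adjusted p = 0.80; 1 at an unadjusted p below 0.05), and their median log2 fold change was 0.08. Cox4i1, of cytochrome c oxidase, had 395 and 394 FPKM in Tfam cKO and 395 and 334 FPKM in WT. Atp5b, the catalytic subunit of ATP synthase, had 419 and 342 FPKM in Tfam cKO and 406 and 282 FPKM in WT. In both, WT 2 was the low library. The 10 keratinocyte markers summed to 15721 and 14288 FPKM in Tfam cKO, against 15879 and 10744 FPKM in WT, and WT 2 was lowest for 8 of the 10. The 8 Langerhans cell markers summed to 26036 and 20275 FPKM in Tfam cKO and 22818 and 23259 FPKM in WT, and WT 2 was lowest for none. The share of the complex I levels that came from keratinocyte RNA was not tested.

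**Figure D4:**
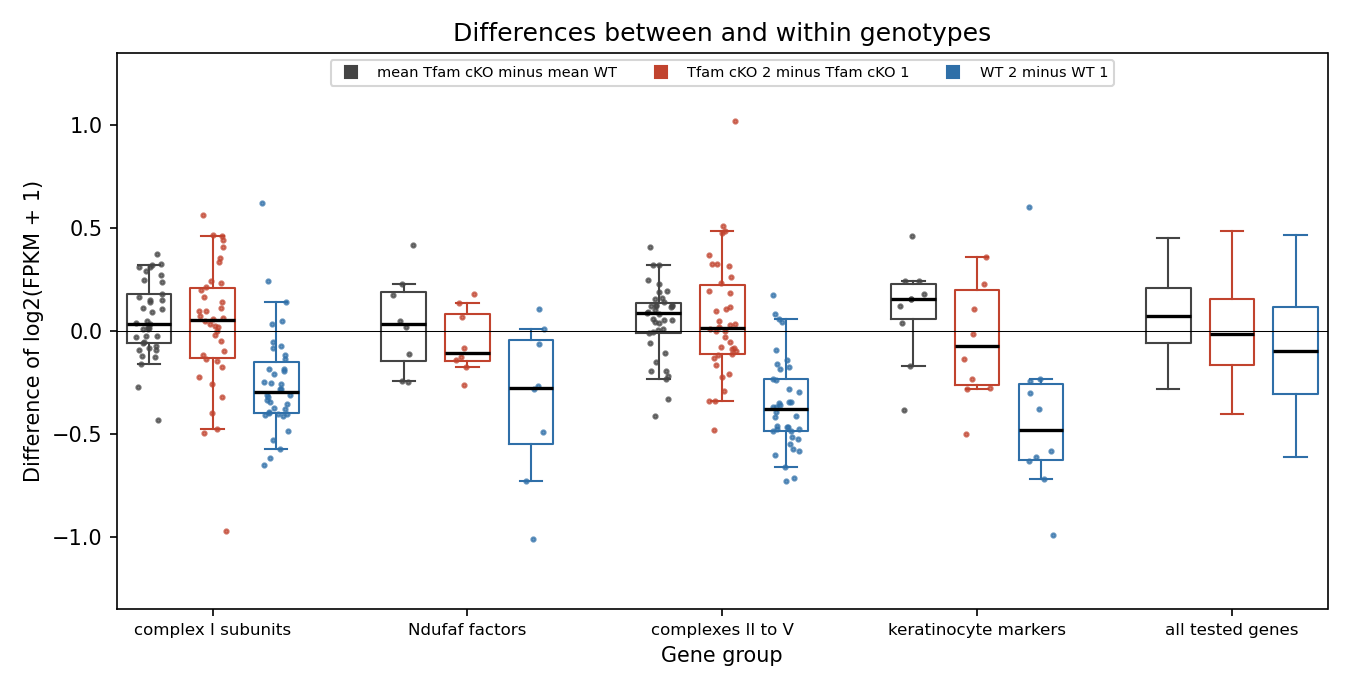
Differences of log2(FPKM + 1) between genotype means (grey), between the Tfam cKO libraries (red) and between the WT libraries (blue), for complex I subunits, Ndufaf factors, subunits of complexes II to V, keratinocyte markers and all tested genes. Points are genes, thick lines medians, boxes quartiles and whiskers the 5th and 95th percentiles. The blue median is at −0.30 for complex I subunits and at −0.10 for all tested genes.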

How the data were processed

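Langerhans cells were sorted, their RNA isolated with Trizol and libraries built with a NEBNext Ultra kit, per the labels' protocols. The authors deposited 1 table of FPKM per library, computed with Cufflinks per the file headers. CASAVA, Cufflinks and mm10 are named in the submitters' processing notes; tool versions, the aligner and the gene models are not stated in what was used here. Positions in the files overlapped the GRCm38 gene of the same name for only 3 of the 46 members, so their build is unresolved.

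FPKM were summed over the loci of a symbol. The 10910 symbols averaging 1 FPKM or more were tested on log2(FPKM + 1) with limma 3.58.1 (R 4.3.3), fitting genotype alone, with trended moderated variances and Benjamini-Hochberg adjustment at 0.05 over all of them. The fit was also run on simulated data, with independent noise between libraries and larger log2 changes than any member showed. That run does not measure how well changes of the members' size would be found. Members and lists were chosen with earlier results of these data known. Of the Nduf genes, 1 is counted in the totals and not reported here by itself. Any Nduf gene may be named; values in every library are given for core subunits, Ndufaf factors, the 3 highest and 3 lowest members, members whose genotypes do not overlap, Ndufa4 and Ndufa4l2, and for the 2 highest genes of other lists. Other genes given by library were chosen after their values were seen. Read depth is not recorded. Each Cufflinks interval reaches 2 standard errors up and down, and its width gave the effective fragments behind each value, at least 9 with a median of 266 over members and libraries, under 100 in some library for 15 members. Transcript copies were sought with blastn 2.17.0 in GENCODE M21. Figures used matplotlib 3.10.9 under Python 3.11.15. Alternatives were other filters, pseudocounts, scalings, variance settings, the highest locus only, a replicate block and leaving out each library.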

Additional observations from a re-analysis of the deposited data

How the results depend on the processing

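No complex I gene passed the threshold under any of the 13 alternatives, where the lowest limma adjusted p of a member was 0.182, without WT 1. Read depth is not recorded, and 2 libraries per genotype limit the precision. Genes higher in Tfam cKO over all tested genes numbered 2, and 1 with the filter at 5 FPKM, 0 without a filter, 1 with a pseudocount of 5 and 145 with the replicate block. Genes lower numbered 0, and 1 without the mean trend and 39 with the replicate block. With each library left out in turn, which leaves a lone library assumed to vary like the other group, they numbered 12 to 63 higher and 3 to 40 lower. The same fits gave subunit medians from −0.077 to 0.199 and factor medians from −0.159 to 0.207. The labels number the libraries of each genotype 1 and 2 but give no pairing. Same-numbered libraries deviated together over all tested genes with a correlation of 0.26, and over the members with −0.21. Under the block no member passed (lowest limma adjusted p = 0.35).

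Log2 fold changes that turned sign after rescaling to equal totals were Ndufa2 −0.076, Ndufaf3 −0.0648, Ndufaf7 −0.0858, Ndufb10 −0.104, Ndufb6 −0.00996, Ndufb7 −0.115, Ndufb9 −0.016, Ndufs1 −0.111, Ndufs4 −0.104, Ndufs8 −0.0314, Ndufv2 −0.0814, Ndufv3 −0.0906. After quantile normalization they were Ndufa2 −0.0627, Ndufaf3 −0.0321, Ndufaf7 −0.0289, Ndufb10 −0.0807, Ndufb7 −0.115, Ndufb9 −0.0136, Ndufs1 −0.0804, Ndufs4 −0.0764, Ndufs8 −0.017, Ndufv2 −0.0624, Ndufv3 −0.0852. That of Ndufs5 was 0.301 when summed with the overlapping model. Among members whose sign turned with a library left out, the values ranged from −0.213 to 0.0461 for Ndufa1, −0.0921 to 0.394 for Ndufa10, −0.197 to 0.0864 for Ndufa13, −0.154 to 0.247 for Ndufa2, −0.187 to 0.135 for Ndufa4, −0.356 to 0.298 for Ndufa5, −0.0192 to 0.295 for Ndufa7, −0.152 to 0.103 for Ndufa9, −0.309 to 0.188 for Ndufab1, −0.479 to 0.25 for Ndufaf1, −0.33 to 0.681 for Ndufaf2, −0.038 to 0.136 for Ndufaf3, −0.122 to 0.163 for Ndufaf7, −0.15 to 0.188 for Ndufb10, −0.36 to 0.169 for Ndufb11, −0.0222 to 0.6003 for Ndufb2. They ranged from −0.473 to 0.148 for Ndufb3, −0.325 to 0.0831 for Ndufb4, −0.297 to 0.111 for Ndufb5, −0.0882 to 0.311 for Ndufb6, −0.0972 to 0.113 for Ndufb7, −0.0255 to 0.388 for Ndufb8, −0.292 to 0.0413 for Ndufc1, −0.0293 to 0.328 for Ndufc2, −0.281 to 0.295 for Ndufs1, −0.00121 to 0.476 for Ndufs3, −0.189 to 0.217 for Ndufs4, −0.759 to 0.212 for Ndufs5, −0.00251 to 0.181 for Ndufs8, −0.136 to 0.21 for Ndufv2, −0.061 to 0.126 for Ndufv3. The cause of these turns was not tested.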
